A study of Mus musculus with 2 samples.

Results

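The genes of the proteasome were described in eosinophils sorted as CCR3+ and SiglecF+ cells from the pooled bone marrow of naive C57BL6J mice. The members were all genes of the deposited tables whose symbol begins with Psm, a letter from a to e and a digit, leaving out the inducible beta subunits Psmb8 and Psmb9. That selection took 42 of 23343 genes. The core particle had 17 of them (Psma and Psmb genes), the regulatory cap 17 (Psmc1 to Psmc6 and most Psmd genes), the activators 4 (Psme1 to Psme4) and the assembly chaperones of the cap's base 3 (Psmd5, Psmd9 and Psmd10). The last gene, Psmc3ip, is named after the ATPase Psmc3 but is no subunit of the proteasome. It encodes a partner of the meiotic recombinases, so it was kept apart. Libraries of poly(A) RNA came from 2 independent sorts of 1 group, with no treatment, no second cell type and no second genotype. They are called sort 1 and sort 2. The labels do not give the number or age of the pooled mice.

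The proteasome degrades proteins that carry chains of ubiquitin. Its core particle is a barrel of stacked rings, with outer rings of alpha subunits that form the gate and inner rings of beta subunits, some of which cut peptide bonds. A cap on the end of the barrel holds a base with a ring of ATPases, which unfolds substrates, and a lid, which removes ubiquitin. Activators bind the same end of the barrel without using ATP, and in blood cells some catalytic beta subunits can be exchanged for interferon-inducible ones.

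Sort 1 had 10087743 counted reads and sort 2 had 9264150, of which the 42 genes took 0.177% (95% Wilson interval 0.174 to 0.180) and 0.182% (0.179 to 0.185). Intervals cover counting error only. All 6 eosinophil markers (Prg2, Epx, Ear1, Ccr3, Il5ra and Siglecf, listed as Siglec5) were detected, at 32.1 to 1232 RPKM in sort 1 and 32.2 to 1462 in sort 2 (reads scaled to transcript length and library size). Neutrophil markers were abundant too, with 7 of 7 detected, none at 0, and a summed level of 1942 RPKM in sort 1 and 1638 in sort 2. The 2 markers of cycling cells, Mki67 and Top2a, summed to 32.3 and 53.4 RPKM. Of 2 markers each, 1 B cell, 0 T cell and 0 erythroid markers passed an RPKM of 1 in both sorts, with sums of at most 3.43 RPKM. In bulk RNA, fewer cells of a type and less RNA per cell cannot be told apart. The libraries stood apart in X- and Y-linked transcripts, with 47487 and 5 reads of Xist and 0 and 756 reads of the Y-linked Kdm5d in sort 1 and sort 2. The ribosomal RNA precursor Rn45s took 9.07% of the reads in sort 1 and 0.963% in sort 2.

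Promoter sequence was taken from RefSeq (GRCm38.p6), which held a window of 250 bases before to 50 bases after the transcript start for 35 of the 42 genes. The RefSeq start equalled the deposited start in 29 of the 35. It lay 2129 bases away in Psmc1, and 8 to 69 bases away in Psma7, Psmc2, Psmd4, Psmd6 and Psme3. The 4 stretches shown belong to Psme1 and Psme2, neighbouring genes whose proteins form 1 activator while their transcript levels were far apart, and to Psma2 and Psmb5, the ring subunits of the core with the highest and the lowest mean over the sorts (in sort 1 Psma7 and Psma6 were above Psma2). Each stretch ends at the base before the transcript start and is written on the gene's own strand. Capitals mark matches to the antioxidant response element core TGACNNNGC, the CCAAT box or the NRF1 palindrome, on either strand. NRF1 here is nuclear respiratory factor 1, and not Nfe2l1, the factor of proteasome genes described further on.
Psme1, chr14:55578244-55578493, plus strand: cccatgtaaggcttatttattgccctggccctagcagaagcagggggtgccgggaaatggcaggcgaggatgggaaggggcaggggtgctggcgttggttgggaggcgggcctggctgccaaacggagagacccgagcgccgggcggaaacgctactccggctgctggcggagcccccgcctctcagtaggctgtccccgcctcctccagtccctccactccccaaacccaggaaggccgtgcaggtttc
Psme2, chr14:55591022-55591271, minus strand: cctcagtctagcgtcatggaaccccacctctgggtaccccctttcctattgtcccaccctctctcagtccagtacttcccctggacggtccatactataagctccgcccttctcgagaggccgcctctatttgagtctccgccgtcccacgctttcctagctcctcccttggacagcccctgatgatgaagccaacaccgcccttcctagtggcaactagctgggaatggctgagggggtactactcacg
Psma2, chr13:14612992-14613241, plus strand: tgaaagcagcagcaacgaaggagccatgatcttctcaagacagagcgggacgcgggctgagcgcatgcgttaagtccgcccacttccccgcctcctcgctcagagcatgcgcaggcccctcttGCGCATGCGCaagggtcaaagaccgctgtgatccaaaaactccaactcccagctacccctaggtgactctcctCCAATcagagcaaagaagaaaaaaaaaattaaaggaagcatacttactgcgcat
Psmb5, chr14:54617996-54618245, minus strand: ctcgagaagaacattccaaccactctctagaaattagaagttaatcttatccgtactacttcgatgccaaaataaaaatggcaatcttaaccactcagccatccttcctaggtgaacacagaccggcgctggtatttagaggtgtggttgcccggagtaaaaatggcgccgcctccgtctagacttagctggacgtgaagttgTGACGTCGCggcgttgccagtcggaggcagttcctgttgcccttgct

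The Psma2 stretch held the palindrome at position -127 and a CCAAT box at -54, counted in bases from the start. Psmb5, the chymotrypsin-like catalytic subunit, had the antioxidant response element core at -47. Psmb6, Psmc6, Psmd9, Psmd12 and Psme4 had it too, which made 6 of 35 windows (17.1%), beside 12.4% of 32851 RefSeq windows. Each member counts with the 1 window nearest its deposited start, whereas a gene can have several among all windows. CCAAT was found in 13 of 35 (37.1%), beside 37.4% of all windows, and the palindrome in Psma2 alone, beside 0.971% of all. The interferon-stimulated response element core (GAAA, any 2 bases, GAAA; either strand), chosen after the levels were seen, was in 4 of 35 windows (11.4%), beside 3.44% of all. Those 4 were Psmb3, Psmd4, Psmd9 and Psme1, in Psme1 9 bases after the start. A match is a run of letters and not a bound site, and no match in these windows says nothing about a factor. The members without a window were Psma8, Psmb1, Psmb2, Psmb7, Psmc3, Psmd3 and Psmd7.

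Of the 42 genes, 38 reached an RPKM of 1 in each sort, the level used here for detected, beside 7048 of all 23343 genes (30.2%). All 17 cap subunits and all 4 activators were detected, as were 15 of 17 core genes and 2 of 3 base chaperones. Among the 32 detected core and cap genes, mean levels lay between the 76.3rd and the 96.4th percentile of all genes. Psme1 stood at the 99.6th. Levels of the 38 detected genes in the 2 sorts correlated with a Spearman coefficient of 0.89, or 0.88 without Psme1. These are values across genes that share 2 libraries, given as a description.

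**Figure D1:**
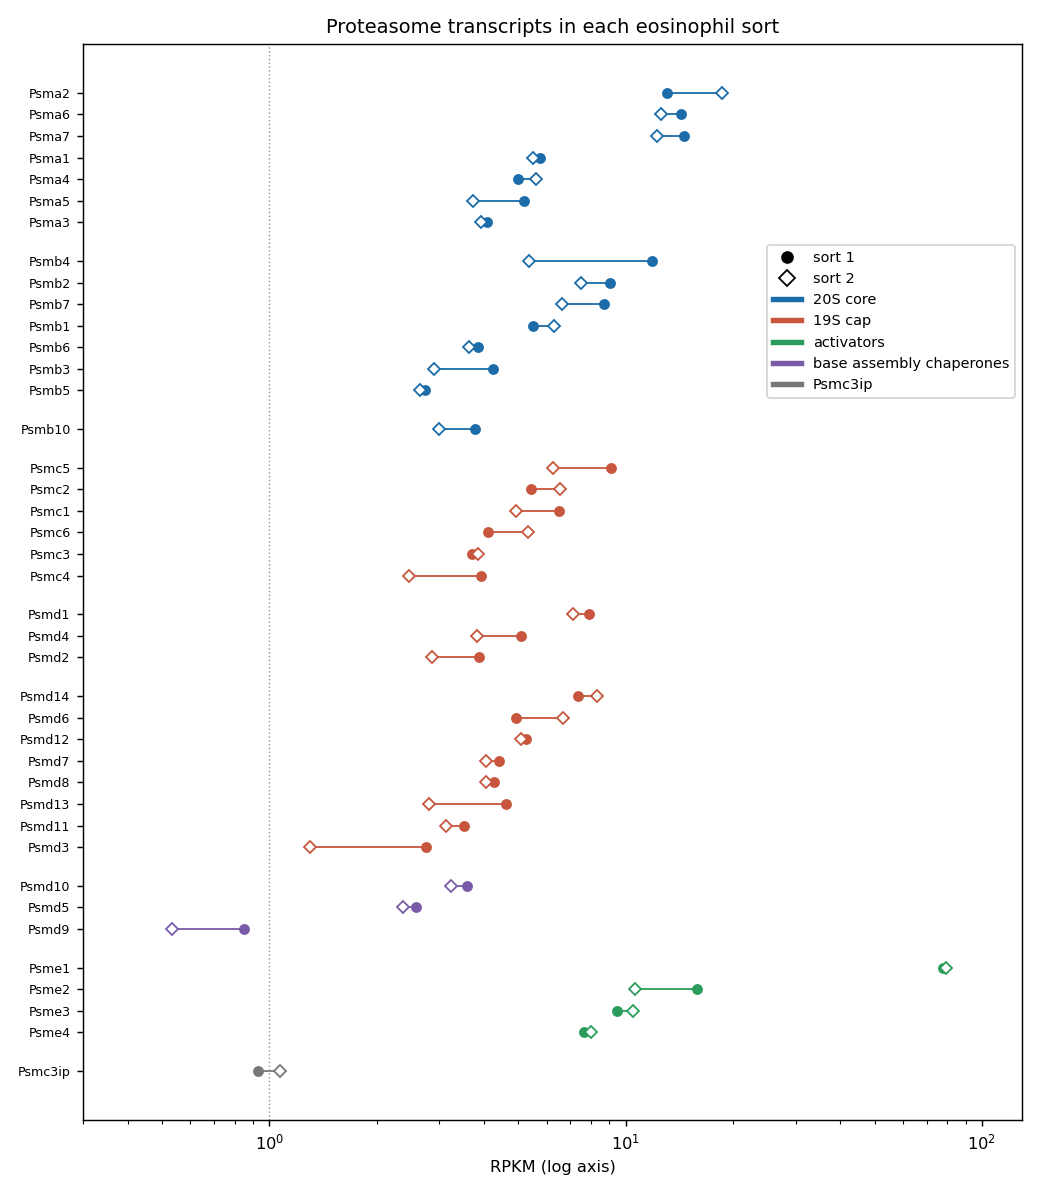
RPKM on a log axis of 40 genes with reads in both sorts, grouped by role, with filled circles for sort 1 and open diamonds for sort 2 joined by a line; Psma8 and Psmb11, with at most 2 reads, are left out. The dotted line marks an RPKM of 1. Psme1 sits alone near 78 RPKM, while core and cap genes lie between 1.30 and 18.6.

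The 7 widely expressed alpha subunits were all detected and fell into a high and a low set. Psma2 had 13.1 RPKM in sort 1 and 18.6 in sort 2, Psma6 had 14.3 and 12.6, and Psma7 had 14.5 and 12.2. Their means were 15.8 ± 3.92, 13.4 ± 1.20 and 13.4 ± 1.65 RPKM (SD, n = 2), so the order among them is within the spread between the sorts. The other 4 were lower in both sorts without overlap, with Psma1 at 5.74 and 5.49, Psma4 at 4.99 and 5.62, Psma5 at 5.17 and 3.72, and Psma3 at 4.09 and 3.94. Each of these proteins occupies 1 place in every alpha ring, whereas the transcript of Psma2 was 3.19 times that of Psma3 in sort 1 and 4.72 times in sort 2. Psma3 shares 3309 bases with 3110056K07Rik on the opposite strand, which had 83 and 116 reads. The sources used here do not give the strand setting of the counting, so reads of such pairs cannot be told apart. The testis subunit Psma8, the alternative to Psma7 in germ cells, had 0 reads in sort 1 and 2 in sort 2, and a count of 0 allows up to 3 reads.

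Beta subunits spanned a similar range. The catalytic ones were Psmb7, with trypsin-like activity, at 8.71 RPKM in sort 1 and 6.61 in sort 2, Psmb6, with caspase-like activity, at 3.86 and 3.64, and Psmb5 at 2.74 and 2.64. In both sorts Psmb7 was the highest and Psmb5 the lowest of these, with Psmb7 at 3.19 and 2.50 times the level of Psmb5. Psmb5 lay near 2.69 ± 0.0651 RPKM (SD, n = 2), the lowest mean of the 14 ring subunits. The structural subunits had 9.04 and 7.50 RPKM for Psmb2, 5.51 and 6.30 for Psmb1, and 4.26 and 2.90 for Psmb3. Psmb4, another structural subunit, had 11.8 RPKM in sort 1 and 5.35 in sort 2, the widest gap in the core. Over the 14 ring subunits, alpha and beta, mean levels differed by up to 5.88-fold.

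Psmb10 is the interferon-inducible subunit that takes the place of Psmb7. It had 3.77 RPKM in sort 1 and 2.99 in sort 2, from 194 and 154 reads. That was 0.433 and 0.452 of the Psmb7 level, a ratio of 0.442 ± 0.0135 (SD, n = 2), and Psmb10 did not pass the test between the sorts described further on (adjusted p = 0.170, exact binomial test with Benjamini-Hochberg adjustment). Psmb11, the catalytic subunit of the thymus cortex, had 1 read in sort 1 and none in sort 2.

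The ATPases of the cap's base, Psmc1 to Psmc6, were all detected and stayed within a 2.4-fold range of means. Psmc5 led with 9.09 RPKM in sort 1 and 6.27 in sort 2, followed by Psmc2 at 5.42 and 6.52, Psmc1 at 6.52 and 4.92, and Psmc6 at 4.10 and 5.31. Psmc3 had 3.70 and 3.84 RPKM, and Psmc4 had 3.92 and 2.47. The ranges of neighbours in this order overlapped, except for Psmc6 against Psmc3. Of the non-ATPase base subunits, the scaffold Psmd1 had 7.87 and 7.13 RPKM, the ubiquitin receptor Psmd4 had 5.09 and 3.84, and Psmd2, which docks shuttle proteins, had 3.89 and 2.87. Psmd1 was above Psmd2 by 2.03 and 2.49 times. Htr2b lies within the span of Psmd1 on the opposite strand, and had 57 and 49 reads against 1038 and 943 for Psmd1.

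In the lid, the highest of the 8 Psmd transcripts was that of the deubiquitinase Psmd14, with 7.35 RPKM in sort 1 and 8.31 in sort 2. Psmd7, which pairs with Psmd14, had 4.41 and 4.06. Psmd6 had 4.93 and 6.69, Psmd12 had 5.24 and 5.07, Psmd8 had 4.26 and 4.05, and Psmd13 had 4.61 and 2.80. Psmd11, which contacts both base and core, had 3.53 and 3.12 RPKM. The lowest lid subunit was Psmd3, with 2.75 RPKM in sort 1 and 1.30 in sort 2. Psmd14 exceeded it by 2.68 times in sort 1 and 6.41 times in sort 2, so the size of that gap rests on Psmd3.

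Among the base assembly chaperones, Psmd10, also known as gankyrin and encoded on the X chromosome, had 3.59 and 3.23 RPKM. Psmd5 had 2.58 and 2.36. Psmd9 was below the minimum in both sorts with 0.848 and 0.532 RPKM, from 89 and 56 reads. Psmc3ip had 0.930 and 1.07 RPKM, close to that minimum.

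Activators included the highest transcript of all 42. Psme1, the alpha subunit of the PA28 activator, is at chr14:55578494-55581527 (mm10) on the plus strand and had 77.6 RPKM in sort 1 and 79.5 in sort 2, from 3070 and 3154 reads. Its mean of 78.6 ± 1.34 (SD, n = 2) was exceeded by 103 genes of the tables. Psme1 alone took 17.2% and 18.7% of the reads of the 42 genes. It was above the highest core or cap gene by 5.33 times in sort 1 and 4.28 times in sort 2. A second gene, Emc9, shares 4 bases with its end and had 13 reads in each sort.

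Psme2 encodes the beta subunit, which forms a mixed ring with the Psme1 product, and lies 5912 bases further along the chromosome on the minus strand. The summed level of Psme2 was 15.9 RPKM in sort 1 and 10.6 in sort 2. Psme1 exceeded it by 4.88 and 7.47 times. Psme2 was the 1 member spread over 2 rows, which differ in their start. The row starting at 55591021 had 477 and 387 reads, and the row starting at 55591101 had 88 reads in sort 1 and 0 in sort 2. Against the first row alone, Psme1 was higher by 5.91 and 7.47 times, so the gap between the partners was present in both sorts with either reading. The split of reads between rows that share most of their sequence is uncertain.

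Psme3, the nuclear activator that forms a ring of its own, had 9.43 RPKM in sort 1 and 10.5 in sort 2. Psme4, a large single-chain activator that acts on acetylated histones, had 7.66 and 8.01 RPKM. Both varied little, with means of 9.96 ± 0.747 and 7.83 ± 0.248 RPKM (SD, n = 2). In order of level the activators were Psme1, Psme2, Psme3 and Psme4 in both sorts, although Psme2 and Psme3 nearly met in sort 2, at 10.6 and 10.5 RPKM.

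Class medians were 5.17 RPKM in sort 1 and 5.35 in sort 2 for the core, 4.61 and 4.06 for the cap, and 12.7 and 10.6 for the activators. Over all genes the medians were 0.108 and 0.0896, and over detected genes 4.07 and 3.97. The median of log2(RPKM + 1) in the activators exceeded that in the core by 1.10 in sort 1 and 0.87 in sort 2, a difference of 0.99 ± 0.17, and that in the cap by 1.22 ± 0.04 (SD, n = 2). Core exceeded cap by 0.14 and 0.33, or 0.23 ± 0.13 (SD, n = 2), and with means over members in place of medians by 0.02. The smallest two-sided p of an exact sign test over 2 libraries is 0.5, so no test was made, and genes of a class are not replicates.

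**Figure D2:**
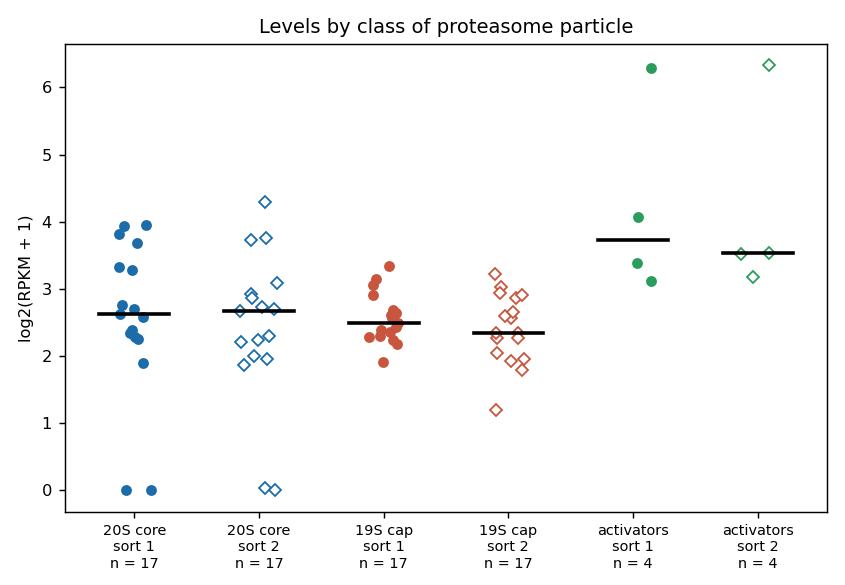
Each point is 1 gene, on the log2(RPKM + 1) scale, for the core, the cap and the activators in each sort, and bars are medians. Core and cap overlap over most of their range, and the 2 core points at 0 are Psma8 and Psmb11. The activator points start above the core and cap medians, and Psme1 is the point above 6.

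Activators did not separate fully from the other classes. In sort 1, 6 core and 2 cap genes were above the lowest activator, and in sort 2, 3 core genes and 1 cap gene were. Without Psme1 the activator median was 9.43 and 10.5 RPKM, so the higher class level did not rest on that gene. Transcripts differed in length between the classes, with medians of 1000 bases in the core, 1568 in the cap and 2626 in the activators as implied by the deposited counts and RPKM, the last over Psme1, Psme3 and Psme4 only. With GENCODE lengths, which include Psme2, the medians were 1183, 1636 and 1888 bases. On the unscaled CPM scale, which is not per length, the cap median of 30.2 was above the core median of 23.9. The spread among members, as the SD of mean log2 RPKM over detected genes, was 0.80 in the core, 0.52 in the cap and 1.51 in the activators (0.38 without Psme1), beside 1.47 over all detected genes.

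Differences between the sorts were small for most members. Of 40 members with at least 10 reads, 2 were called different, at an adjusted p under 0.05 in an exact binomial test and a fold of at least 2, or 5%, beside 7.95% of all 12347 tested genes. Both were higher in sort 1, a direction in which 4.9% of all tested genes were called. Each sort has 1 library, so this test compares 2 libraries with sampling noise. Psmb4, at chr3:94884324-94886958 (mm10), had 455 reads in sort 1 and 206 in sort 2, and was 2.10-fold higher in sort 1 on the scale with a prior count of 2 (adjusted p = 8.12e-19, exact binomial test with Benjamini-Hochberg adjustment over all tested genes). Psmd3, at chr11:98682554-98695978, had 239 and 113 reads and was 2.0-fold higher in sort 1, at the edge of the threshold (adjusted p = 2.30e-09, same test). With scaling by total counts the log2 ratio of Psmd3 was -0.95 and Psmb4 was the 1 member called. By edgeR's exact test with a dispersion estimated from both libraries, 0 of 40 members passed, beside 0.267% of all tested genes, and 2 had an unadjusted p under 0.05. Its adjusted p was 0.67 for Psmb4 and 0.79 for Psmd3. The dispersion came from the same 2 libraries taken as 1 group. Differences between the sorts therefore enter it, and edgeR's test cannot decide on these calls.

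At any fold, 21 of 40 members had an adjusted p under 0.05 in the exact binomial test (52.5%), beside 44.4% of all tested genes. Of these, 13 were higher in sort 1 and 8 in sort 2, while 21.6% and 22.8% of all tested genes passed in these directions. By class, 5 of 15 tested core genes, 11 of 17 cap genes, all 4 activators and Psmd9 passed. Psme1 and Psme4 had the most reads of the 42, and with more reads smaller differences pass. Psme1 passed with a log2 ratio of 0.11 and Psme4 with 0.14. With total counts without Rn45s the ratio of Psme1 was 0.039 and did not pass (adjusted p = 0.41, exact binomial test with Benjamini-Hochberg adjustment), which leaves 3 activators. Psma2 had the largest positive ratio, 0.58, and Psmd6 the next, 0.51.

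Median log2 ratios were -0.11 in the core (6 above 0 and 9 below), -0.07 in the cap (7 and 10) and 0.12 in the activators (3 and 1), beside -0.0003 over all tested genes (6167 and 6180). Of all 40 members 17 were above 0 and 23 below, 12 and 28 with the deposited RPKM, and 20 and 20 with scaling by total counts, where the cap median was -0.016. The median of all tested genes was -0.07 with the deposited RPKM and 0.05 with total counts. The sign of the 3 class medians held under each scaling run. The members that passed as lower in sort 2 came from several subcomplexes. They included the beta subunits Psmb3, Psmb4 and Psmb7, the ATPases Psmc1, Psmc4 and Psmc5, and the lid subunits Psmd3 and Psmd13. The ATPases Psmc2 (0.34) and Psmc6 (0.44) and the lid subunits Psmd6 (0.51) and Psmd14 (0.25) passed as higher. All 3 non-ATPase base subunits among the members had ratios below 0, from -0.37 to -0.07. The ubiquitin receptor Adrm1, which the selection did not take, had 0.43 and did not pass. The summed neutrophil markers were lower in sort 2, with Ngp, Ltf, Camp and S100a9 lower, Mpo, Elane and S100a8 higher, and both cycling markers were higher in sort 2. Their part in these ratios was not tested, and the difference in Xist and Y-linked reads cannot be told apart from the sort.

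Ratios of the members also went with the GC content of their transcripts. Across the 40 tested members the Spearman correlation of the log2 ratio with GC was -0.52, and across 8680 genes with at least 100 reads it was -0.54. Members share 2 libraries, and the values are descriptions. The 20 members of lower GC, from 37.0% to 49.7%, had a median ratio of 0.01, where all genes in that GC range had 0.18. The 20 of higher GC, from 49.8% to 58.3%, had -0.30, where all genes had -0.15. After subtraction of the running median at the same GC, Psmb4 had -0.96, Psmd3 -0.69 and Psma2 0.20. The ratio of Psma2 thus went from 0.58 to 0.20, and that of Psmd3 was below a fold of 2. The ratio of Psmb4 was close to its uncorrected value of -1.07. Of the members that passed at any fold, Psme4 went from 0.14 to -0.07, Psmc6 from 0.44 to -0.002 and Psmd14 from 0.25 to 0.007, while Psme1 went from 0.11 to 0.31. GC came from GENCODE transcripts, whose length was within 0.8 to 1.25 of that implied by the table for 30 of 39 members. Across those 30 the correlation was -0.44. Psma2 (2911 bases in GENCODE, 949 implied) and Psmc6 (2234 and 1568) were not among them. Their corrected ratios therefore rest on the GC of transcripts of another length.

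**Figure D3:**
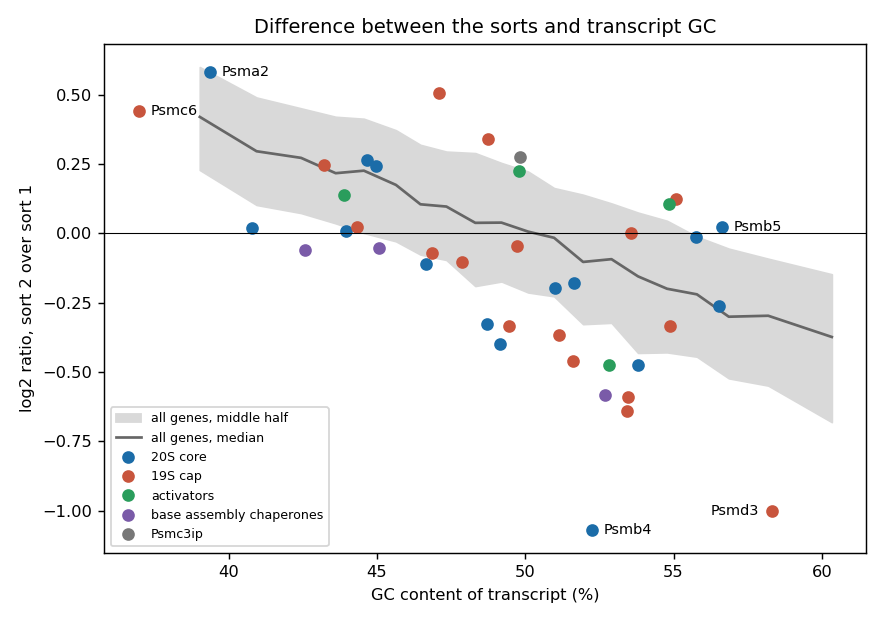
Log2 ratio of sort 2 to sort 1 against transcript GC content in percent, with 1 point per tested member coloured by class. The grey line and band give the median and the middle quartiles of all genes with at least 100 reads in 20 bins of GC. Members go down with GC as all genes do, and Psmb4 and Psmd3 lie near -1, below the band.

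Other genes of the pathway were taken from a list of 34, of which 33 were in the tables and 28 were detected, with median levels of 3.20 and 3.01 RPKM. None of the 33 was called at a fold of at least 2, beside 7.95% of all tested genes. At any fold 17 of 33 passed, beside 44.4% of all tested genes. Of these, 10 were higher in sort 2 and 7 in sort 1, while 22.8% and 21.6% of all tested genes passed in these directions. Pomp, a chaperone of beta ring assembly, had 17.8 RPKM in sort 1 and 21.5 in sort 2, above the beta subunits described here in both sorts. The alpha ring assembly chaperones were far lower, with Psmg1 at 1.43 and 1.08, Psmg2 at 0.956 and 1.33, Psmg3 at 0.412 and 0.294, and Psmg4 at 1.20 and 0.769. Psmf1, a regulator that binds the core, had 1.34 and 1.02. Sem1, the smallest lid subunit, listed as Shfm1, had 9.40 and 8.33 RPKM, level with Psmd14 in sort 2 and above the other lid subunits. The cap-associated ubiquitin receptor Adrm1 had 0.933 and 1.21 RPKM, below the 17 cap subunits in each sort, from 54 and 70 reads.

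Of the deubiquitinases that dock on the cap, Uchl5 had 6.23 RPKM in sort 1 and 7.99 in sort 2, and Usp14 had 1.36 and 1.72. Ecpas, an adaptor between core and cap listed as AI314180, had 5.02 and 5.57. Nfe2l1, the factor that raises transcription of proteasome genes when activity is short, had 6.55 and 5.57 RPKM summed over 4 rows. Of these rows 2 had the same reads as each other, 232 in sort 1 and 296 in sort 2, so the sum may count reads more than once, and the other rows had reads in 1 sort each. Nfe2l2, the related factor of the oxidative stress response, had 18.4 and 25.1. Ngly1 and Ddi2, which process Nfe2l1, had 5.84 and 6.29, and 1.32 and 0.981 RPKM. Akirin2, which takes part in nuclear import of proteasomes, had 3.88 and 5.24.

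The highest gene of the list was Rps27a, which encodes ubiquitin fused to a ribosomal protein, with 32.3 and 27.5 RPKM. Uba1, the main ubiquitin-activating enzyme, had 17.9 and 19.5 RPKM summed over 3 rows, and the second such enzyme, Uba6, had 1.84 and 3.04. The highest row of Uba1 alone had 17.2 and 19.5, and another had 121 reads in sort 1 and 0 in sort 2. The joint entry of Gm1821 and the polyubiquitin gene Ubb had 9.60 and 5.70 RPKM. Uba6 had the largest positive log2 ratio of the list, 0.79, below a fold of 2. The unfoldase Vcp, which prepares substrates, differed little, with 5.34 and 5.27 RPKM.

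**Figure D4:**
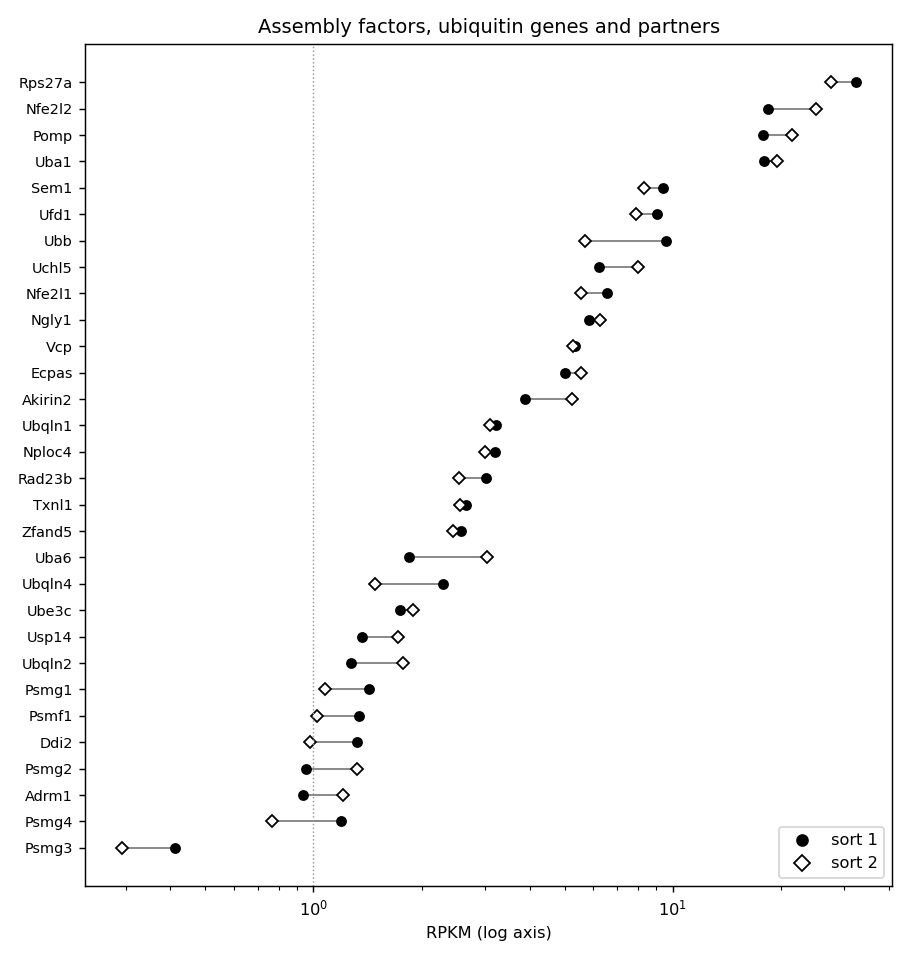
RPKM on a log axis of the genes of the pathway list reported here, in order of mean level, with filled circles for sort 1 and open diamonds for sort 2. The dotted line marks an RPKM of 1. Rps27a is the highest and Psmg3 the lowest, and Pomp lies far above Psmg1 to Psmg4.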

How the data were processed

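Reads were aligned with STAR 2.4.0c to mm10, per the submitters' processing notes. The authors deposited read counts per group of RefSeq transcripts and RPKM values beside them. The sources used here do not give the counting program, its strand setting or filters. The libraries were stranded, per the labels' protocols. The RPKM divisor implied by rows of 1 transcript was larger than the tabled reads, which made up 25.0% and 22.9% of it in sort 1 and sort 2, so RPKM values are lower than tabled reads alone would give.

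Counts and RPKM were summed over rows of a gene. Log2 ratios of sort 2 to sort 1 used TMM-scaled library sizes (edgeR 4.0.16) and a prior count of 2. Genes with at least 10 reads over both libraries were tested with an exact two-sided binomial test (scipy 1.17.1) and Benjamini-Hochberg adjustment. The test was tested on simulated counts with sampling noise alone, and takes no account of other variation between libraries. A quasi-likelihood test needs replicated groups, and both libraries belong to 1 group. DESeq2 1.42.0 gave alternative size factors. GC content came from GENCODE M21 transcripts matched by RefSeq accession. The sorts differed in Xist and Y-linked reads, so they were not drawn from the same mice. Every member was described. From the pathway list, the highest 6, the assembly factors and any called were to be named; the others named were chosen after their values were seen. Some genes of that list are not reported here. Members, lists and motifs were chosen with earlier results of these data known.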

Additional observations from a re-analysis of the deposited data

How the results depend on the processing

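Class medians moved with the summary used. With means over members the levels were 6.23 RPKM for the core, 4.86 for the cap and 27.4 for the activators, and in CPM the medians were 23.9, 30.2 and 161. Without Psma8 and Psmb11, an alternative chosen after seeing the data, the core median was 5.50 RPKM. With either sort left out, medians ranged from 5.17 to 5.35 for the core, 4.06 to 4.61 for the cap and 10.6 to 12.7 for the activators.

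With means over members the log2 differences were 0.022 for core and cap, 1.67 for activator and core, and 1.70 for activator and cap. The last was 1.37 with a pseudocount of 0.1, 1.39 with none and 1.15 with the highest row of a gene. With either sort left out, core and cap differed by 0.14 to 0.33, activator and core by 0.87 to 1.10, and activator and cap by 1.19 to 1.24. Each of the 3 differences kept its direction in the alternatives run for it, which did not include CPM. In CPM the cap median of 30.2 was above the core median of 23.9, so the order of core and cap depends on the scaling to length.

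The 2 calls of 40 members became 1 with total counts and 4 with a fold of at least 1.5. They became 21 at any fold and 0 with edgeR's exact test. In the same order, 7.95% of all tested genes were called, then 7.66%, 18.2%, 44.4% and 0.267%. The dispersion of edgeR's test holds the differences between the sorts, so that test cannot decide on the calls of Psmb4 and Psmd3. After the GC correction the median log2 ratio was -0.18 in the core, -0.17 in the cap and 0.07 in the activators. Of the activators 2 were then above 0 and 2 below, and of all 40 members 14 were above and 26 below. The median of the 40 was -0.18, beside -0.01 over all tested genes. No paired analysis was possible because both libraries belong to 1 group. With 1 library a sort, the test takes account of sampling noise only, and members with under 100 reads carry wide counting error.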
